A study of Mus musculus with 16 samples.

Results

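The clustered Hox genes were examined in 2 of their 4 clusters, HoxC on mouse chromosome 15 and HoxD on chromosome 2. The genes described are Hoxc4, Hoxc5, Hoxc6, Hoxc8, Hoxc9, Hoxd1, Hoxd3, Hoxd4, Hoxd8 and Hoxd9, taken by symbol from the deposited table of RefSeq transcripts. They are 10 of 24158 genes in the table and 10 of the 18 HoxC and HoxD genes in it, and they were measured by 12 RefSeq transcripts. All 10 passed the filter of the test, a value above 0 in any library.

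Hox genes encode homeodomain transcription factors that set the identity of body segments along the axis from head to tail. Within a cluster the genes lie in the order in which they are used, with low paralogue numbers switched on earliest and nearest the head. Retinoic acid (RA), the active form of vitamin A, is known to open the low-numbered end of the clusters through nuclear receptors bound to short repeated DNA elements.

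RNA was taken from embryoid bodies (EBs), aggregates of differentiating cells made from the R1 mouse embryonic stem cell line by 4 days of culture without Lif. At day 0 the EBs had received no RA, and at day 4 they had been kept in 2 μM RA for 4 days, so that EBs of day 4 were also older and no untreated EBs of that age were compared. The age of the EBs and the RA treatment therefore cannot be told apart. Each day had 2 biological replicates, and every one of the 4 RNA samples was split into 4 vials with spike-in mix 1, 2 or 3 or without in vitro transcribed spike-ins (mix 4), which gave 16 stranded total RNA libraries.

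Values are FPKM (fragments per kilobase of transcript scaled to the number of fragments mapped), which allows for transcript length when genes are compared. From the spike-ins, the authors found a small effect of GC content, length and the number of isoforms on such values. They also found that the RNA background, which differed between the days, influenced the spike-in values. No correction for either was made here. The number of fragments behind a value was not given, and no counting error can be stated. Vials are splits of the same RNA, and day 4 was therefore compared with day 0 over 2 against 2 RNA samples, each the mean of its 4 vials. In whole EBs, fewer cells expressing a gene and less of its RNA per cell cannot be told apart.

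A pair of libraries stood apart. The mix 3 and mix 4 vials of day 0 replicate 2 correlated with the mix 1 vial of the same RNA at r = 0.832 and 0.859 over 11583 genes on the log2 scale, while vials of the other RNA samples correlated at 0.986 or more. The sum of FPKM was 412141 and 411090 in these vials and reached 622888 in the mix 1 vial of day 0 replicate 1. The day 4 vials also had low sums, from 422219 to 446834, so that the sum alone does not set the pair apart. Compared with the mix 1 and mix 2 vials of that RNA, the pair held 1.88 times the FPKM of Hoxc8, 1.41 times that of Hoxc4 and 1.37 times that of Hoxd8, but 0.754 times that of Hoxd4. Counts of genes and transcripts called by the test are therefore also given without them.

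RefSeq promoter windows, from 250 bases before to 50 after a gene's start in GRCm38.p6 (mm10), were found for Hoxc4, Hoxd1, Hoxd3, Hoxd4, Hoxd8 and Hoxd9. Hoxd8 and Hoxd3 are shown as having the highest and the lowest level at day 4 among the HoxD genes listed at the start. Hoxc4, which rose, and Hoxd1, which fell, were added after their values were seen. Capitals mark matches on either strand to the receptor-binding hexamer AGGTCA and to its relatives AGTTCA, then GGGTCA and lastly GGTTCA. They also mark matches to promoter motifs, the TATAAA box and the CCAAT box. All were searched on both strands, and none of the matches overlap. A match on the minus strand appears as its reverse complement.
Hoxd8, plus strand, chr2:74704365-74704664: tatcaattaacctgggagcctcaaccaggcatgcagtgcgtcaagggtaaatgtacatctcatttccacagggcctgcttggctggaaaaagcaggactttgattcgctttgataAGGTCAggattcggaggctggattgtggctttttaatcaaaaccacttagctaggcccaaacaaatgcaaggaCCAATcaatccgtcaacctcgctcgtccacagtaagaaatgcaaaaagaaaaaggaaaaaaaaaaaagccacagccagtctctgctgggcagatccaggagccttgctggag
Hoxd3, plus strand, chr2:74711743-74712042: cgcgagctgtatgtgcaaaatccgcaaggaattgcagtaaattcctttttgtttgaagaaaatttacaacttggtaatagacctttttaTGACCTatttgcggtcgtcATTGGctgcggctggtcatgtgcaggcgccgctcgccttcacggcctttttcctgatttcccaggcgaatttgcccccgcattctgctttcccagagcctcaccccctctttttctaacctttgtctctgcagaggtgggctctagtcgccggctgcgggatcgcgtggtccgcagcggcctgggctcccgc
Hoxc4, plus strand, chr15:103034145-103034444: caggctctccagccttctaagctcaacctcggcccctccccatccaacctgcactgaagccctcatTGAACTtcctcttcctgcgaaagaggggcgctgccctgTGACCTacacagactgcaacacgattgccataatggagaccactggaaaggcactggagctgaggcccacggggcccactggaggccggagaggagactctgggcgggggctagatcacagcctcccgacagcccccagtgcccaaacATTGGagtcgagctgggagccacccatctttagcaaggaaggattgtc
Hoxd1, plus strand, chr2:74762730-74763029: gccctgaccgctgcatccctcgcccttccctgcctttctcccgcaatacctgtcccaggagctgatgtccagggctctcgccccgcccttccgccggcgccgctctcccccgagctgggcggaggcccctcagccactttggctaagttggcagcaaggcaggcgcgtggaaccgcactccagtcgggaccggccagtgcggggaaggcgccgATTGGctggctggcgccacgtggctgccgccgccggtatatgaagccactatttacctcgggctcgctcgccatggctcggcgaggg
The Hoxc4 window lies around a start within the interval of the gene. The Hoxd8, Hoxd3 and Hoxc4 windows each held the hexamer AGGTCA, at positions -135, -161 and -146 from the start (the latter pair on the minus strand), and so did 16.3% of all 32851 promoter windows. In the Hoxc4 window AGTTCA also occurred, on the minus strand at position -184. The Hoxd1 window held none of the 4 hexamers. Of the windows not shown, that of Hoxd4, which was not called, held AGGTCA at -145 and GGTTCA at -87, both on the minus strand. The Hoxd9 window, also of a gene not called, held none of the motifs searched. CCAAT was found in all 4 windows shown and in 37.4% of all windows. Direct repeats of these hexamers spaced by 2 or 5 bases (DR2 and DR5), the arrangement of many RA response elements, were not found in any of the 6 windows and occurred in 0.268% and 0.0974% of all windows. The Hoxd1 window had 29 CpG dinucleotides and that of Hoxd3 20, against 9 in the Hoxc4 window, 6 in the Hoxd8 window and a median of 7 over all windows.

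The HoxC genes rose and the HoxD genes moved in both directions. All 5 HoxC genes were higher at day 4 at an adjusted p of at most 0.05 (limma on log2(FPKM + 0.1), Benjamini-Hochberg adjustment over 20490 genes). Of the 5 HoxD genes, Hoxd3 and Hoxd8 were higher, Hoxd1 was lower, and Hoxd4 and Hoxd9 did not pass. In all, 7 of the 10 genes were called higher, where 16% of the 20490 genes tested were, and 1 was called lower, where 14.5% were (30.5% in either direction). The median log2 difference was 3.36 over the HoxC genes, 0.50 over the HoxD genes and -0.03 over the 20490 genes.

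Summed over the 5 HoxC genes, the level was 5.08 and 5.25 FPKM in the day 0 RNA samples and 140.1 and 146.6 FPKM at day 4, 27.8-fold higher. The sum of the 5 HoxD genes was 28.6 and 28.9 FPKM before RA against 32.9 and 34.1 FPKM at day 4, 1.16-fold higher. HoxD thus held the larger sum before RA and HoxC the larger sum after it. At day 0 Hoxc8 gave the largest share of the HoxC sum, 40.2%, and at day 4 Hoxc5 gave 52.3% of it. Hoxd8 gave the largest share of the HoxD sum on both days, 38.1% at day 0 and 61.6% at day 4.

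**Figure D1:**
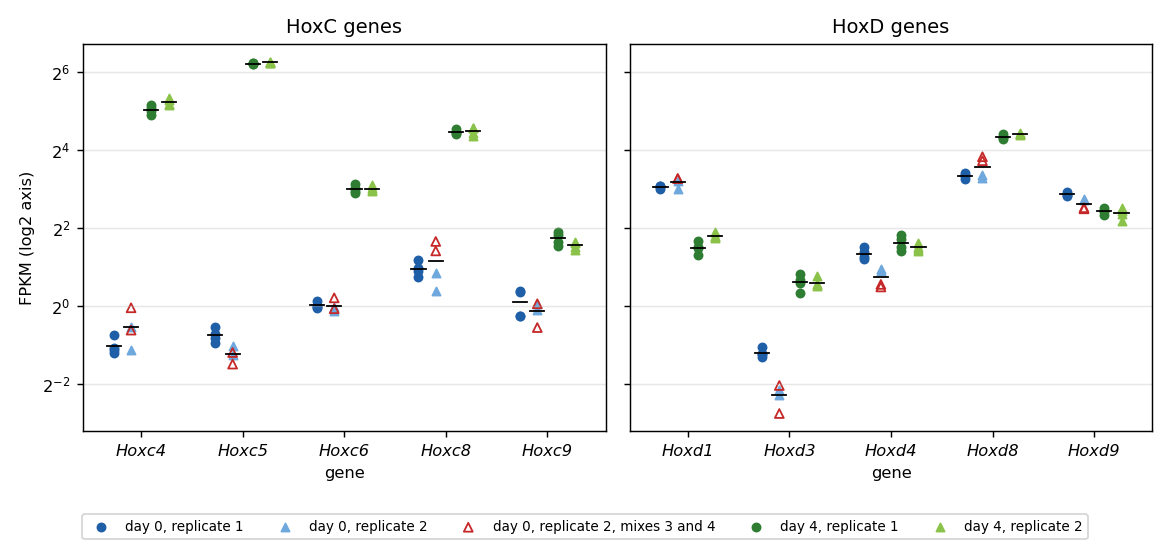
FPKM (log2 axis) of the 10 genes in each of the 16 vials, with HoxC genes on the left and HoxD genes on the right. Symbols give the day and the replicate, horizontal lines the mean of 4 vials, and open red triangles the mix 3 and mix 4 vials of day 0 replicate 2. All HoxC vials of day 4 lie above those of day 0, Hoxd1 lies below, and the vials of Hoxd4 and of Hoxd9 overlap between the days.

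Hoxc5, with Hoxc4 the HoxC gene expressed nearest the head and used in the neck region, lies at chr15:103014008-103017429 on the plus strand. In the RNA samples of day 0 its level was 0.594 and 0.422 FPKM, and it was 74.1 and 75.8 FPKM in those of day 4. The 8 vials of day 0 ranged from 0.354 to 0.686 FPKM (median 0.502) and the 8 of day 4 from 73.3 to 76.9 FPKM (median 75.0), without overlap. The difference of 6.96 ± 0.22 (SE) on the log2 scale passed the test (adjusted p = 0.00456), and 11 of the 20490 genes rose by more.

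Hoxc4, the low-numbered end of the HoxC cluster, spans chr15:103018097-103036856. In the day 0 RNA samples it was at 0.487 and 0.689 FPKM, and in those of day 4 at 32.7 and 37.5 FPKM, a 59.8-fold higher mean. The vials ranged from 0.428 to 0.964 FPKM (median 0.533) at day 0 and from 29.9 to 40.1 FPKM (median 35.3) at day 4. Every vial of day 4 was far above every vial of day 0, and the highest vial of day 0 was one of the pair that stood apart. The log2 difference was 5.69 ± 0.24 (SE, adjusted p = 0.00456).

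Hoxc8 and Hoxc6, known from the forelimb and upper trunk levels of the spinal cord, rose from higher starting levels. Hoxc8 (chr15:102990539-102994275) was at 1.93 and 2.22 FPKM before RA against 22.0 and 22.3 FPKM at day 4. The replicates of day 4 nearly coincided, while the vials of day 0 replicate 2 ran from 1.30 to 3.14 FPKM. The log2 difference was 3.36 ± 0.18 (SE, adjusted p = 0.00456), a 10.7-fold higher mean.

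Hoxc6 (chr15:102998226-103011882) had the closest replicates of the 10 genes at day 0, 1.01 and 1.00 FPKM. At day 4 its RNA samples were at 7.97 and 8.03 FPKM, 7.98-fold higher. The vials did not overlap between the days, from 0.912 to 1.15 FPKM against 7.45 to 8.69 FPKM, and the log2 difference was 2.88 ± 0.20 (SE, adjusted p = 0.00548).

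Hoxc9, which sets thoracic identity in spinal motor neurons, changed least among the HoxC genes from Hoxc4 to Hoxc9. This gene, at chr15:102977032-102984444, was at 1.06 and 0.918 FPKM before RA against 3.31 and 2.93 FPKM at day 4. The vials of the days stayed apart, with a highest value of 1.29 FPKM at day 0 and a lowest of 2.68 FPKM at day 4. Its mean was 3.15-fold higher and the log2 difference 1.56 ± 0.24 (SE, adjusted p = 0.0204).

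Along the cluster, the log2 difference of the HoxC genes was 5.69, 6.96, 2.88, 3.36 and 1.56 from Hoxc4 to Hoxc9. The difference thus tended to be smaller towards the high-numbered end, but not from Hoxc4 to Hoxc5 or from Hoxc6 to Hoxc8. The order of levels also changed. At day 0 Hoxc8 was the highest of the 5, Hoxc6 and Hoxc9 overlapped below it, and Hoxc4 and Hoxc5 overlapped at the bottom. At day 4 the order was Hoxc5, Hoxc4, Hoxc8, Hoxc6 and Hoxc9, and no neighbours in it overlapped in their RNA samples.

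**Figure D2:**
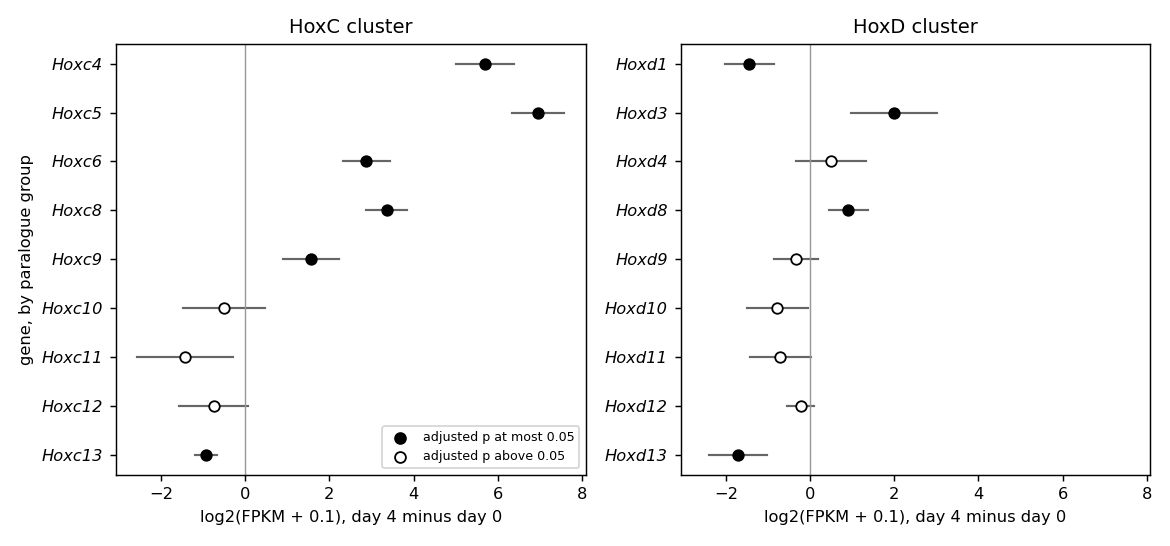
Difference in log2(FPKM + 0.1) between day 4 and day 0 (points) with its 95% interval from limma (lines) for the 9 HoxC and 9 HoxD genes, in order of paralogue group from top to bottom. Filled points have an adjusted p of at most 0.05. All genes of groups 10 to 13 lie below 0 in both clusters, with 2 of these 8 called, and Hoxc5 is furthest to the right at 6.96.

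In HoxD, Hoxd8 was the most abundant gene on both days. Hoxd8, a gene of the trunk, lies at chr2:74704615-74707933, and its level summed over 3 transcripts was 10.1 and 11.8 FPKM before RA against 20.2 and 21.1 FPKM at day 4. The vials of day 0 lay between 9.59 and 14.1 FPKM, and those of day 4 between 19.5 and 21.5 FPKM, without overlap. The highest vials of day 0 were again the pair that stood apart. The mean was 1.88-fold higher and the log2 difference 0.91 ± 0.16 (SE, adjusted p = 0.0280).

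The transcripts of Hoxd8 were NM_001290731, NM_001290730 and NM_008276, which share exon sequence, so that RSEM divides reads between them. NM_001290730 shares all 1758 of its exon bases with NM_008276, and NM_001290731 shares 447 of its 557 bases with it. NM_001290731 held 66.2% and 79.4% of the gene's FPKM in the day 0 RNA samples and 77.4% and 76.8% at day 4. Its level was 6.70 and 9.40 FPKM before RA against 15.6 and 16.2 FPKM at day 4, and that of NM_001290730 was 2.54 and 2.12 FPKM and then 3.80 and 4.32 FPKM. Tested singly over 28213 transcripts, none of the 3 passed, with adjusted p of 0.0608 for NM_001290731, 0.0946 for NM_001290730 and 0.724 for NM_008276 (limma). With the replicate as a block NM_001290731 passed (adjusted p = 0.0298, limma), and without the pair of vials that stood apart NM_001290731 and NM_001290730 both passed (adjusted p = 0.00538 and 0.0266, limma). NM_008276 was the most variable between vials of one RNA, from 0 to 0.648 FPKM within day 0 replicate 2.

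**Figure D3:**
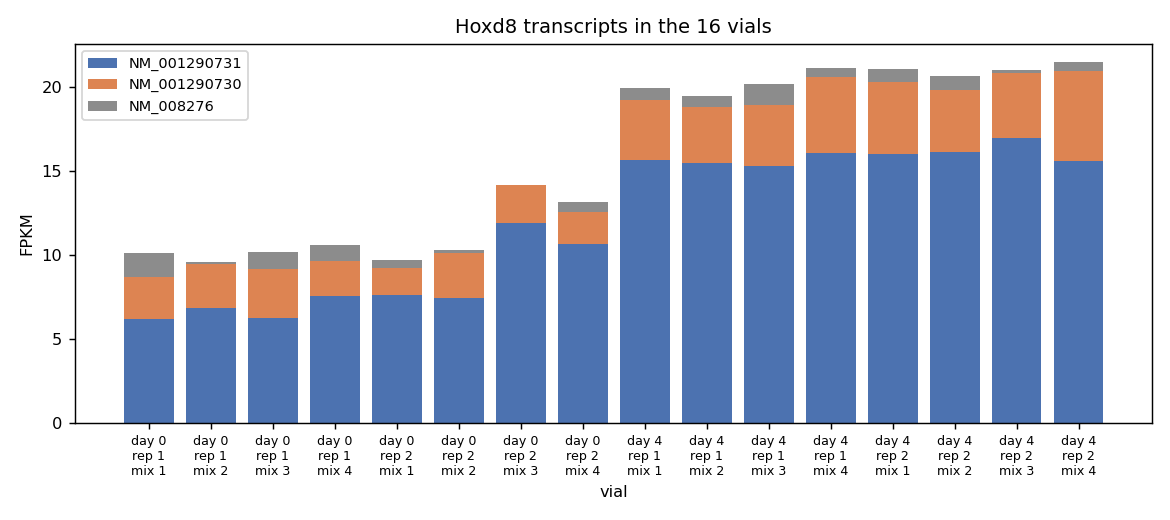
FPKM of the 3 Hoxd8 transcripts, stacked, in each of the 16 vials by day, replicate (rep) and mix. NM_001290731 gives the largest part of every bar, the bars of day 4 all exceed 19 FPKM, and the mix 3 and mix 4 bars of day 0 replicate 2 exceed the other bars of day 0.

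Hoxd3, a gene of the hindbrain and upper neck, had the lowest mean of the 10 genes on both days, overlapping with Hoxc5 at day 0. At chr2:74711993-74748271, it was at 0.432 and 0.205 FPKM before RA against 1.52 and 1.51 FPKM at day 4, 4.75-fold higher. The replicates differed more at day 0 than at day 4, and no vial of day 0, of which the highest was 0.484 FPKM, reached the lowest of day 4, 1.25 FPKM. The log2 difference was 2.00 ± 0.36 (SE) and passed on the gene level (adjusted p = 0.0289) but not among transcripts (adjusted p = 0.0516, limma), where it passed with the replicate as a block (adjusted p = 0.0280) and without the pair of vials that stood apart (adjusted p = 0.0187). Hoxd4, a hindbrain gene known to respond to RA, lies at chr2:74721978-74729160 and was at 2.53 and 1.66 FPKM at day 0. At day 4 it was at 3.06 and 2.83 FPKM, and its vials overlapped between the days, up to 2.86 FPKM at day 0 and down to 2.64 FPKM at day 4. The log2 difference of 0.50 had a 95% interval from -0.33 to 1.33 (adjusted p = 0.262).

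Hoxd1, which lies at the low-numbered end of HoxD and is known from pain-sensing neurons, went the other way. The gene lies at chr2:74762980-74765142, and its RNA samples were at 8.29 and 9.07 FPKM at day 0, the second highest level among the 10 genes, and at 2.81 and 3.46 FPKM at day 4. All 8 vials of day 4, at 2.45 to 3.69 FPKM (median 3.23), were below all 8 of day 0, at 8.01 to 9.60 FPKM (median 8.45). The level was 2.77-fold lower at day 4, a log2 difference of -1.45 ± 0.21 (SE, adjusted p = 0.0182). It did not pass without day 0 replicate 1 (adjusted p = 0.0562, limma) or with mix 4 vials only (adjusted p = 0.0580, limma). Hoxd9, used at lumbar levels and in the limb, lies at chr2:74697763-74700208 and was at 7.25 and 6.15 FPKM before RA against 5.36 and 5.16 FPKM at day 4. Its RNA samples were lower at day 4 while its vials overlapped between the days, and the log2 difference of -0.34 had a 95% interval from -0.87 to 0.19 (adjusted p = 0.236).

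In order of level at day 0, Hoxd8 was followed by Hoxd1 and Hoxd9, and all 3 exceeded every HoxC gene. Hoxd4 and Hoxc8 overlapped below them. At day 4 Hoxd8 followed Hoxc5, Hoxc4 and Hoxc8, and its vials overlapped with those of Hoxc8. Hoxd1, Hoxc9 and Hoxd4 overlapped near the bottom, with means of 3.14, 3.12 and 2.94 FPKM. Within an RNA sample the spread of the 4 vials was widest in day 0 replicate 2, where the coefficient of variation of the 10 genes ran from 8.22% to 37.4%, and in day 4 replicate 2 it ran from 1.03% to 10.0%.

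Without a model, 8 of the 10 genes had both day 4 RNA samples above both of day 0, as had 33% of the genes tested, and 2, Hoxd1 and Hoxd9, had both below, as had 38.1%. Over the 8 and 8 vials 7 genes lay above (19.8% of genes tested) and 1 below (14.6%). Without the mix 3 and mix 4 vials of day 0 replicate 2 the count over RNA samples was again 8 above (36%) and 2 below (43.1%). Among the 12 transcripts, 5 were called higher and 1 lower, where 10.2% and 8.67% of all 28213 transcripts were. With the replicate as a block 7 transcripts were called higher and 1 lower (14.7% and 20.9% of all transcripts), and without that pair of vials 8 higher and 2 lower (22.2% and 28.9%). Without that pair of vials, 7 genes were called higher on the gene level and 2 lower, Hoxd9 being the addition (log2 difference -0.39, adjusted p = 0.0348, limma), where 27.1% and 33.6% of all 20490 genes were called. With mix 4 vials only, which called 5.1% of all genes higher and 1.8% lower, Hoxc9, Hoxd1, Hoxd3 and Hoxd8 no longer passed (adjusted p from 0.0580 to 0.128, limma). With either RNA sample of day 4 left out, limma called 0 of the 20490 genes. At an unadjusted p under 0.05, without day 4 replicate 1 it found 4 of the 10 genes higher and 1 lower, and the same numbers without day 4 replicate 2.

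The other genes in and beside the clusters were given by a list of 22 genes in the table. Of the list, 1 was called higher, 2 lower and 19 neither, where 16% and 14.5% of all genes were called. Smug1, a DNA repair glycosylase gene beside HoxC, rose from 5.21 and 4.83 FPKM to 44.0 and 42.6 FPKM, 8.63-fold (log2 difference 3.09 ± 0.15, SE, adjusted p = 0.00456). Hoxc13 and Hoxd13, the last genes of their clusters, fell by 0.93 and 1.72 on the log2 scale (adjusted p of at most 0.0181 in both). Hoxd13 was at 1.75 and 2.08 FPKM before RA against 0.491 and 0.529 FPKM at day 4, while Hoxc13 was below 0.2 FPKM throughout. Evx2, next to Hoxd13, was listed at 0 in both RNA samples of day 0, and Hoxc12 was listed at 0 in both of day 4.

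All 8 genes of paralogue groups 10 to 13 of HoxC and HoxD had both RNA samples of day 4 below both of day 0, as had 38.1% of the genes tested, a grouping made after their values were seen. Without the pair of vials that stood apart all 8 were again below, as were 43.1% of the genes tested. The HoxA and HoxB genes of these groups did not all go this way. Hoxa10 was called higher, from 2.17 and 2.04 FPKM to 4.60 and 4.29 FPKM (log2 difference 1.05, adjusted p = 0.0325, limma), and so was Hoxb13, from 0.0458 and 0.0148 FPKM to 3.71 and 3.63 FPKM (4.87, adjusted p = 0.00456). Hoxa11 and Hoxa13 had both RNA samples of day 4 below both of day 0 and did not pass. The 8 HoxC and HoxD genes were low on both days, with means from 0.0190 to 2.63 FPKM at day 0 and up to 1.48 FPKM at day 4. Hoxd10, the most abundant of them at day 0, was at 2.98 and 2.28 FPKM and then at 1.55 and 1.41 FPKM (log2 difference -0.78, adjusted p = 0.0933). With the replicate as a block, which called 22.5% of all genes higher and 29.1% lower, the list of 22 had 3 genes higher and 7 lower, Hoxc11 and Hoxc12 among the latter (adjusted p = 0.00147 and 0.00532, limma). Without the pair of vials that stood apart the counts were 5 higher and 8 lower, against 27.1% and 33.6% of all genes.

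The same paralogue groups were compared over the clusters by their levels. In group 4, Hoxa4 reached 41.1 FPKM at day 4, Hoxc4 35.1, Hoxb4 19.7 and Hoxd4 2.94 FPKM, with log2 differences of 7.91, 5.69, 3.41 and 0.50. In group 5, Hoxa5 reached 85.4 FPKM, Hoxc5 74.9 and Hoxb5 4.02 FPKM. In group 8 the order was another, with Hoxc8 at 22.1 FPKM, Hoxd8 at 20.6 and Hoxb8 at 0.532 FPKM. In group 9, Hoxa9 was at 6.08 FPKM, Hoxd9 at 5.26, Hoxc9 at 3.12 and Hoxb9 at 1.01 FPKM, and Hoxa9 and Hoxc9 were called higher. In group 3, Hoxb3 reached 14.9 FPKM, Hoxa3 2.56 and Hoxd3 1.51 FPKM, all 3 called higher.

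**Figure D4:**
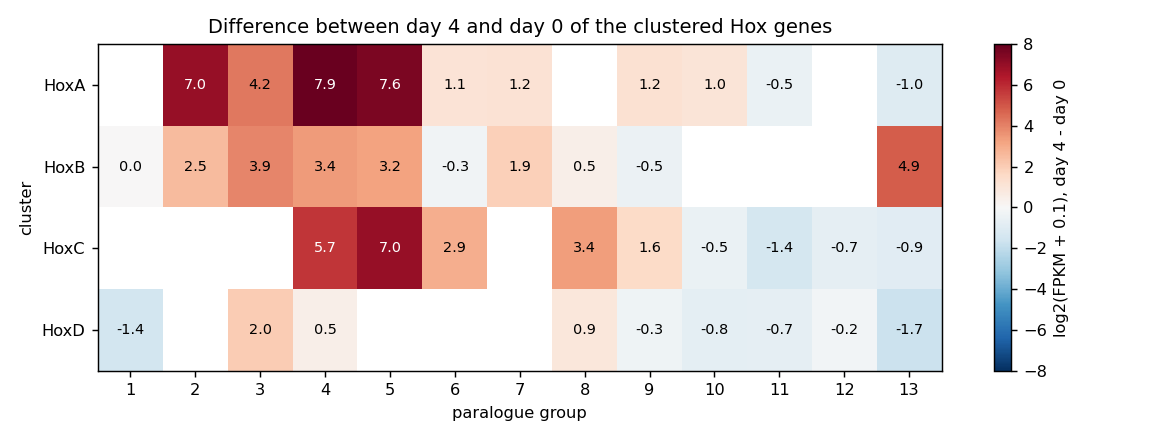
Difference in log2(FPKM + 0.1) between day 4 and day 0 for clustered Hox genes in the table, by cluster (rows) and paralogue group (columns), with red for higher and blue for lower at day 4. Blank cells have no gene in the table or are not reported here. The 3 largest values are those of Hoxa4, Hoxa5 and Hoxc5, and Hoxd1 is the lowest value shown among groups 1 to 9.

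Of the 17 HoxA and HoxB genes of groups 1 to 9, 11 were called higher and 0 lower (limma, 12 and 0 at an unadjusted p under 0.05), beside 16% and 14.5% of all genes, from Hoxa4 at 7.91 down to Hoxa9 at 1.21 on the log2 scale. With the replicate as a block 13 were called higher and 0 lower (limma, 13 and 0 at an unadjusted p under 0.05), beside 22.5% and 29.1% of all genes. Without the pair of vials that stood apart 12 were called higher and 0 lower (limma, 12 and 1 at an unadjusted p under 0.05), beside 27.1% and 33.6% of all genes. Summed over all its genes in the table, HoxA went from 9.70 ± 1.04 (SD, n = 2) to 173.5 ± 0.719 FPKM, 17.9-fold, and HoxB from 17.8 ± 2.07 to 94.9 ± 5.00 FPKM, 5.33-fold. All 9 HoxC genes together went from 7.08 ± 0.648 to 144.3 ± 4.48 FPKM, 20.4-fold, and all 9 HoxD genes from 34.2 ± 0.169 to 36.0 ± 0.634 FPKM, 1.05-fold. HoxD had the largest sum of the 4 clusters at day 0 and the smallest at day 4.

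The regulators of Hox genes and the RA pathway were covered by a list of 34 genes, of which 11 were called higher, 6 lower and 17 neither, beside 16% and 14.5% of all genes. Rarb, an RA receptor and a known direct RA target, rose most, from 0.190 and 0.200 FPKM to 106.4 and 107.5 FPKM (log2 difference 8.50 ± 0.17, SE, adjusted p = 0.00456). Pbx3, a DNA-binding partner of Hox proteins, rose least among those called, from 10.2 and 12.3 FPKM to 18.05 and 19.2 FPKM (0.73, adjusted p = 0.0492). Cdx2, a caudal factor that activates trunk and tail Hox genes, fell from 57.6 and 31.3 FPKM to 0.164 and 0.212 FPKM (-7.21 ± 0.38, SE, adjusted p = 0.00456). Cyp26a1, an enzyme that degrades RA, was at 48.9 and 52.4 FPKM before RA against 8.43 and 9.34 FPKM at day 4 (-2.50, adjusted p = 0.00471). Cyp26b1, which also degrades RA and is named here after its values were seen, went the other way, from 0.431 and 0.215 FPKM to 19.3 and 19.7 FPKM (5.59, adjusted p = 0.00472). Stra8, named for its induction by RA, was listed at 0 in both RNA samples of day 0 and was at 1.99 and 1.31 FPKM at day 4. With the replicate as a block 15 of the 34 were called higher and 10 lower, beside 22.5% and 29.1% of all genes. Without the pair of vials that stood apart 17 were called higher and 10 lower, beside 27.1% and 33.6%.

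Genes outside the clusters with the pattern most like the mean of the 5 HoxC genes were Foxp1, Nrep, Mndal, Sfrp1 and Meis1, with Pearson's r from 0.9994 to 0.9997 on the log2 scale. These correlations run over the 16 libraries, which are splits of 4 RNA samples in 2 groups, so that each r also holds the difference between the days. Meis1, a cofactor of Hox proteins, went from 0.715 to 87.6 FPKM on average, and Foxp1, a transcription factor used with Hox genes in motor neurons, from 2.19 to 39.2 FPKM. For the mean of the 5 HoxD genes the most alike of the 11556 genes compared were Erg28, Irak2, Rnf135, Gdf11 and 4933434E20Rik, at 0.951 to 0.973. Hoxd1 fell while Hoxd3 and Hoxd8 rose, so that a gene like this mean need not be like each HoxD gene. Gdf11, a signal known to act on trunk Hox genes, went from 2.50 to 4.76 FPKM and did not pass (adjusted p = 0.105, limma).

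Markers of cell types were also compared between the days, where 16% and 14.5% of all genes were called higher and lower. Of 9 pluripotency markers, 0 were called higher and 8 lower, and their sum was 204.9 and 148.7 FPKM before RA against 13.8 and 9.06 FPKM at day 4. Pou5f1, a defining factor of the stem cells and the marker of this list with the highest mean over the 4 RNA samples, was at 87.3 and 37.2 FPKM at day 0 and at 1.04 and 0.693 FPKM at day 4. Of 8 mesoderm markers, 3 were higher and 4 lower, with a sum of 132.7 and 134.3 FPKM at day 0, when T was the highest, and 52.8 and 55.8 FPKM at day 4, when Twist1 was. Of 6 endoderm markers, 4 were higher and 1 lower, the sum going from 19.7 and 17.9 FPKM to 77.3 and 77.2 FPKM, with Gata6 the highest at day 4. Of 8 neural markers, 4 were higher and 2 lower, with sums of 41.7 and 26.9 FPKM and then 24.1 and 26.7 FPKM, led by Nes. Of 5 spinal cord and motor neuron markers 1 was higher and 0 lower, and the sum, led by Isl1, was 4.95 and 5.89 FPKM before RA against 3.67 and 4.13 FPKM at day 4. Isl1 was not called. The marker called higher, named for its low level, was Lhx3, at 0.024 and 0.005 FPKM and then 0.095 and 0.128 FPKM. In this list 4 of the 5 markers were below 1 FPKM in every RNA sample, as were 4 of the 8 neural markers. The 5 markers of endothelium and blood had 0 higher, 2 lower and sums of 125.6 and 102.9 FPKM and then 112.9 and 95.9 FPKM, with Kdr the highest at day 0 and Hbb-bh1 at day 4. The 3 neural crest markers were all lower and below 1 FPKM in every RNA sample. Where a marker list had 0 genes called in a direction, limma also found 0 at an unadjusted p under 0.05, except for 1 higher gene of endothelium and blood. Without the pair of vials that stood apart, where 27.1% and 33.6% of all genes were called, 3 mesoderm markers were higher and 5 lower, 5 neural markers higher and 2 lower, 1 spinal cord and motor neuron marker higher and 1 lower, 1 marker of endothelium and blood higher and 3 lower, and 2 neural crest markers lower, with the counts of the pluripotency and endoderm markers as before. With the replicate as a block, where 22.5% and 29.1% of all genes were called, 3 mesoderm markers were higher and 5 lower. The block also gave 5 neural markers higher and 2 lower, and 1 spinal cord and motor neuron marker higher and 1 lower. For endothelium and blood it gave 1 higher and 2 lower, and the counts of the other marker lists were as without the block. No marker was at 0 in all libraries of a day. The part of these cell types in the changes of the HoxC and HoxD genes was not tested.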

How the data were processed

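The deposited table holds FPKM per transcript for 16 libraries. The authors mapped reads with bowtie2 2.1.0 to RefSeq transcripts of mm10 with the spike-in sequences, estimated abundance with RSEM 1.2.18 and scaled the FPKM by TMM. RSEM divides reads between overlapping transcripts. TopHat2 2.0.10 is also listed. Replicate numbers of vials come from the study's supplement.

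FPKM were summed per gene symbol (RefSeq and GENCODE names for 99.2% of 33702 RefSeq rows), leaving out 48 spike-in rows and NR_040691, and averaged over 4 vials. With 2 against 2 RNA samples an exact permutation test cannot pass, so limma 3.58.1 (R 4.3.3) with a trend was fitted to log2(FPKM + 0.1). Fold changes are ratios of mean FPKM, and log2 differences understate low genes. On simulated data with few genes changed, the fit recovered 10% of changes of 2 on the log2 scale, 80% of 4 and 84% of 6. With the block it recovered 0% of 2, 2% of 4 and 46% of 6. The simulated replicates were independent between the days, so that the block had nothing to remove there. Its shares therefore do not give what the block recovers in these data. As changes were missed without the block too, a gene not called is not shown to be unchanged. Both days with a replicate number belong to one run of the culture procedure, and replicate differences correlated between days (r = 0.769, 11583 genes). The block changed no call of the 10 genes on the gene level. The exons of different genes among the 10 shared no bases. Among neighbouring genes, HoxA and HoxB genes and regulators, those called with the largest and smallest difference and those at 0 are named. Others of them are named for the reason given there, and markers for their level, called or not. The members and lists were chosen with earlier results of these data known. The value of 1 gene is not reported here.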

Additional observations from a re-analysis of the deposited data

How the results depend on the processing

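In all, 699 values of 53 results (the counts, the 10 genes and the called genes of the other lists) were computed under 15 settings. Of these values, 101 no longer passed and 41 counts moved beyond small shifts. The log2 differences among them had 0 changes of direction, which a count cannot have. Transcripts tested singly and genes of the other lists that were not called are outside this count, and NM_008276 went from 0.27 to -0.34 without day 0 replicate 2 and Hoxd3os1 from 0.43 to -0.49 with mix 4 vials only. Of 139 log2 differences of the 10 genes, 116 kept their side of the threshold, 22 no longer passed and 1, Hoxd9, passed additionally. Scaling each library to the same sum moved the median of all genes from -0.03 to 0.09, a shift of 0.11. It moved the 10 genes by 0.25 (Hoxd1) to 0.42 (Hoxd3) and Hoxd9 from -0.34 to -0.07, with no change of a call among the 10. The replicate block raised the calls from 3280 higher and 2971 lower to 4617 and 5969 without changing a call of the 10 on the gene level. It moved the neighbouring genes to 3 higher and 7 lower, the HoxA and HoxB genes to 13 higher and the regulators to 15 higher and 10 lower.

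With mix 4 vials only, 4 of the 10 genes were called higher (Hoxc4, Hoxc5, Hoxc6 and Hoxc8) and 0 lower (limma; 7 and 1 at an unadjusted p under 0.05), 1 neighbouring gene lower and 3 regulators lower, while 1044 of the 20490 genes were higher (5.1%) and 368 lower (1.8%). With a mean of at least 1 FPKM required, fewer genes were tested. Of 11 neighbouring genes 1 was then lower and of 27 regulators 3, beside 17.8% of the 11583 genes tested. Without the mix 3 and mix 4 vials of day 0 replicate 2, which gave 12 HoxA and HoxB genes higher, 2 of the 10 were lower, 8 of the 12 transcripts higher and 2 lower, 5 neighbouring genes higher and 8 lower, and 17 regulators higher and 10 lower. For the transcripts and the counts of genes without overlap that setting was chosen after seeing the data. Over 8 and 8 vials 1 of the 10 lay below. Without a filter, Hoxd3 had an adjusted p of 0.0736 (limma). Among transcripts it passed with a pseudocount of 0.01 or 1 (adjusted p = 0.0489 and 0.0426, limma). The Hoxc9 transcript no longer passed with a pseudocount of 1 (adjusted p = 0.0579, limma).

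Leaving out each RNA sample in turn gave 0 to 7 of the 10 genes higher and 0 to 1 lower, the lone sample of a day being assumed to vary like those of the other day. The transcripts had 0 to 6 higher and 0 lower. Over the same settings the median log2 difference ran from -0.44 to -0.17 for the neighbouring genes. It ran from 2.46 to 2.63 for the HoxA and HoxB genes and from 0.26 to 0.45 for the regulators. The counts of 0 without either day 4 replicate hold for all 20490 genes, of which limma found 3276 higher and 1656 lower at an unadjusted p under 0.05 without day 4 replicate 1, and 3198 and 1518 without day 4 replicate 2. Without day 0 replicate 1, Hoxd1 had an adjusted p of 0.0562 and 0 of 28213 transcripts passed (5238 higher and 6156 lower unadjusted, limma). The causes were not tested.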
